A study of Homo sapiens with 8 samples.

Results

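The ATP-binding cassette (ABC) family consists of membrane pumps and a few soluble proteins that share an ATP-hydrolysing domain. Its members in MDA-MB-231 cells were taken as all genes with a probe set of exactly 1 symbol made of ABC, a letter from A to G and a number. This gave 41 genes of the 22109 with a single symbol. MDA-MB-231 is a human cell line from a triple-negative breast cancer, mesenchymal in character, and its RNA was hybridised after 24 h to Affymetrix Human Gene 2.1 ST arrays, with 1 array per sample. By their titles the samples were 2 at a high dose and 3 at a low dose of wild yam (Dioscorea villosa) root extract, and 3 untreated controls. The treatment protocol gives 30 µg/mL for the high and 15 µg/mL for the low dose. The source names of the same samples instead name, at 46 µg/mL in the high group, 3-O-Acetyl-β-boswellic acid and, at 128 µg/mL in the low group, Boswellia Serrata Extract, so the agent that the treated cells received is unsettled, and "high" and "low" are used here as names of the groups. All groups come from the same cell line, and the labels do not say whether the replicates were cultured separately, so a p-value here speaks of the scatter among these samples alone, which may in part be technical. No vehicle is named for the controls.

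ABC transporters use ATP to move substrates across a membrane, out of the cell or into an organelle. In cancer cells the family is known for drug efflux, through ABCB1 (P-glycoprotein), the ABCC pumps (multidrug resistance proteins) and ABCG2 (breast cancer resistance protein). ABCA1 and ABCG1 hand cholesterol and phospholipid to lipoproteins, and their genes are targets of the liver X receptors (LXR), which sense oxidised sterols. Subfamily D works in the peroxisome and lysosome, part of subfamily B in the mitochondrion, and subfamilies E and F are soluble proteins that act on the ribosome.

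No member of the family passed the test in any of the 3 comparisons. A gene is called here when its adjusted p is under 0.05 in limma's moderated test, with adjustment by the Benjamini-Hochberg method over all 22109 genes. In high dose against control 0 of 41 members were called higher, where 0.425% of all genes were, and 0 were called lower, where 0.389% were. In low dose against control the count was 0 in both directions, against 1.19% of all genes called higher and 1.81% called lower. In high dose against low dose it was again 0 in both directions, against 0.00452% called higher and 0% called lower. At an unadjusted p under 0.05, 1 member was higher and 5 were lower at the high dose (background 3.03% and 11.4% of all genes). In low dose against control 0 members were higher and 3 lower at that level (background 5.38% and 8.77%), and in high against low dose 1 was higher and 5 lower (background 2.56% and 6.1%). With shares of that size in all genes, these counts do not set the family apart. The 6 members at the high dose were ABCA5 on the higher side and ABCA1, ABCA2, ABCB10, ABCE1 and ABCF2 on the lower side.

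Control 3, low 3 and high 2 had lower 75th percentiles over genes (4.73, 4.54 and 4.54) than the other 5 arrays (4.80 to 4.94). Among the 16 family members with a mean log2 value of 4 or more, control 3 was the lowest control for 15 and low 3 the lowest low-dose array for 15. High 2 was the lower of the high-dose arrays for 14 of them. The whole array moved in the same way, since low 3 was the lowest low-dose array for 92.5% of all genes with a mean of 4 or more, and high 2 the lower high-dose array for 88.0%. For control 3 that share was 59.4%. The deposited table gives no background, and the other 25 members had a mean below 4, so whether a dim member was expressed at all cannot be said. In these bulk samples fewer cells that express a gene and less of its RNA per cell cannot be told apart. The mesenchymal markers VIM and AXL had log2 values of 8.68 to 9.10 and 8.55 to 9.67 over the 8 arrays, whereas SPARC of the same list had 1.80 to 2.30. Of the leukocyte markers PTPRC had 0.94 to 1.40, whereas CD68, which also marks lysosomes, had 7.68 to 8.46. Of the luminal list, ESR1 ranged from 1.60 to 2.18 and PGR from 1.17 to 1.65, while EPCAM ranged from 4.40 to 5.58. As mean log2 level of each list, the 10 mesenchymal markers stood at 7.33 to 7.57 at the high dose, 7.68 to 7.93 at the low dose and 7.30 to 7.88 in controls. The 9 measured of 10 luminal markers stood at 2.84 to 2.95 at the high dose, 3.04 to 3.20 at the low dose and 3.09 to 3.16 in controls. The 5 measured leukocyte markers stood at 2.88 to 2.95, 2.98 to 3.00 and 2.78 to 2.89 in the same order of groups. The 3 measured endothelial markers stood at 2.20 to 2.34, 2.29 to 2.39 and 2.16 to 2.65, and the 4 hepatocyte markers at 1.75 to 1.92, 1.80 to 2.07 and 1.81 to 2.21. No marker was at 0 on this scale, and the part of these levels in the results below was not tested.

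**Figure D1:**
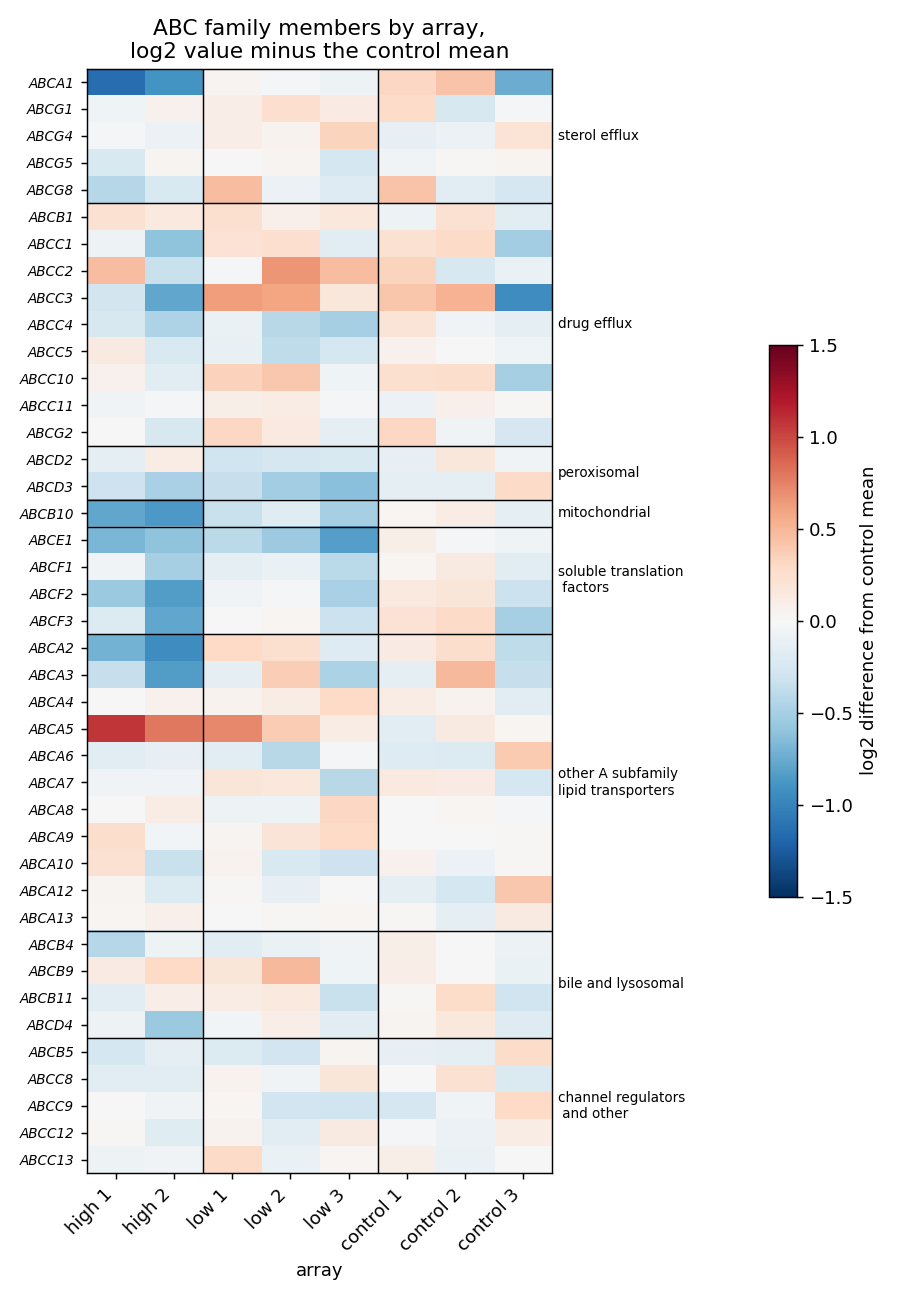
Each cell is the log2 value of 1 of the 41 ABC family members (rows, grouped by role) on 1 array (columns), minus the mean of the 3 controls for that gene. ABCA5 is positive in both high-dose arrays, ABCB10 is negative in both, and control 3 is negative for ABCA1 and ABCC3, where control 1 and control 2 are positive.

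The upstream sequences of 4 members are shown because at the high dose these genes had the lowest adjusted p of their roles. They are ABCA1 (sterol efflux), ABCA5 (other subfamily A lipid transporters), ABCB10 (mitochondrial) and ABCE1 (soluble members that act on the ribosome). No sequence is shown for the other roles, where the lowest adjusted p by limma was 0.372 or more. Each is the 250 bases before the gene's start in RefSeq (GRCh38.p14), written along the gene's own strand from 5′ to 3′. Capitals mark the letters found by a search of both strands for 5 motifs.
ABCA1, chr9:104928156-104928405, minus strand: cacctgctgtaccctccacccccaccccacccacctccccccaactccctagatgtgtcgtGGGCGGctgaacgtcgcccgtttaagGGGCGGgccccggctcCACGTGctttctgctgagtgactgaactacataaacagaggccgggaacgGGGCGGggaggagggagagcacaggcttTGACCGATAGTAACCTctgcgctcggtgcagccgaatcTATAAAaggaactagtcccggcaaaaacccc
ABCA5, chr17:69327134-69327383, minus strand: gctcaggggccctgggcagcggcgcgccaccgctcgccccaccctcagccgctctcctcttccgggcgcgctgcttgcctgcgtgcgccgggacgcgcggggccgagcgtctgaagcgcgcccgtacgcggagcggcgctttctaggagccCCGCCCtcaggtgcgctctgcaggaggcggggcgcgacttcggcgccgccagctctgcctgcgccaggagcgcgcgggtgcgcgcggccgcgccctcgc
ABCB10, chr1:229558708-229558957, minus strand: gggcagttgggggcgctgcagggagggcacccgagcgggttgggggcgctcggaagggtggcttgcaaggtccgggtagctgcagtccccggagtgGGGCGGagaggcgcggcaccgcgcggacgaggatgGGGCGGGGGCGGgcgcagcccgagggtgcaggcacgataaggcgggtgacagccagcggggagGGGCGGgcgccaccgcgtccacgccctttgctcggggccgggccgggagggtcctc
ABCE1, chr4:145098061-145098310, plus strand: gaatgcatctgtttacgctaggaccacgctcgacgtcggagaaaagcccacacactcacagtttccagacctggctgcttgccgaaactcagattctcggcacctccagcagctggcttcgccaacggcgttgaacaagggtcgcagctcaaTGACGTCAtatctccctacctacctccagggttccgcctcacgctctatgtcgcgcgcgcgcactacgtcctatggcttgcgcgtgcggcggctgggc
The ABCA1 sequence holds a match to the direct repeat that LXR receptors bind, AGGTCA written in 2 copies with 4 bases of any kind between, on the reverse strand from base 69 to base 54 before the start, with 2 of its 12 fixed letters differing. Such a match with at most 2 differences was found in 2.03% of the 35116 promoter windows of this length, and among the 32 family genes with a sequence here it was found for 2, ABCA1 and ABCD2. ABCA1 also holds an E-box (CACGTG, in 6.34% of all windows), 3 GC boxes (GGGCGG, in 42.6%) and a TATA box (TATAAA, in 10.7%). ABCB10 holds 4 GC boxes and ABCA5 holds 1, on the reverse strand. ABCE1 holds the cyclic AMP response element TGACGTCA, found in 1.65% of all windows and in no other of the 32 family genes. None of the matches in the 4 sequences overlapped another. The matches describe letters and are not shown to be sites in use.

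Among the 5 sterol efflux members, ABCA1 was the member with the largest difference. ABCA1 moves cholesterol and phospholipid onto apolipoprotein A-I. Its log2 values were 3.61 and 3.85 on the high-dose arrays, 4.80, 4.72 and 4.67 on the low-dose arrays, and 5.06, 5.18 and 4.01 in controls. Both high-dose arrays lay below every low-dose and control array, and control 3 lay closer to them than to control 1 and control 2. The difference between high dose and control was -1.02 ± 0.30 (SE; log2 scale; 2 against 3 arrays), a 2.02-fold lower level, with an adjusted p of 0.159 by limma and a 95% confidence interval from -1.67 to -0.36. Without control 3 the difference was -1.39 and would be called, at an adjusted p of 0.00242. Leaving out any other control or low-dose array gave no call. Across all settings tried, the difference lay between -1.51 and -0.80. Over all genes, too, more were called lower without control 3. The low dose differed from control by -0.02 ± 0.27 (3 against 3 arrays; adjusted p = 0.989), with an interval from -0.61 to 0.57. High dose against low dose gave -0.997 ± 0.30 (adjusted p = 0.399), or an adjusted p of 0.0202 without control 3. Control 3 enters only the shared spread there, so the difference itself was unchanged.

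The other 4 sterol efflux members had smaller differences from control. All 4 were dim, with means over all arrays of 1.51 for ABCG1, 2.40 for ABCG4, 1.54 for ABCG5 and 1.70 for ABCG8. Small differences at this level do not show that a gene was unchanged. ABCG1, which passes cholesterol on to high-density lipoprotein, had log2 values of 1.38 and 1.51 at the high dose, 1.55, 1.70 and 1.58 at the low dose, and 1.72, 1.21 and 1.42 in controls. Both treated groups of ABCG1 overlapped the controls, and high dose differed from control by -0.00 ± 0.19, with a 95% interval from -0.41 to 0.41. The low dose differed from control by 0.16 ± 0.17 (interval -0.21 to 0.52). ABCG4, its relative in the nervous system, and ABCG5 and ABCG8, which together secrete sterols into bile and gut, differed from control by -0.05, -0.10 and -0.33 at the high dose and by 0.16, -0.08 and 0.06 at the low dose. The high-dose arrays of ABCA1, ABCG1, ABCG4 and ABCG8 all lay below the low-dose arrays, a pattern shown by 16.7% of all genes. None of the 5 was called in any comparison, and the median difference of the 5 was -0.10 at the high dose and 0.06 at the low dose, against -0.12 and -0.04 over all genes tested.

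Of 14 measured LXR receptors and efflux partners, 0 were called in either direction in any comparison, with medians of -0.11 at the high dose and 0.10 at the low dose. Of 12 measured genes of sterol supply, 4 were called higher at the high dose and 8 at the low dose (background 0.425% and 1.19% of all genes). In that list 0 were called lower (background 0.389% and 1.81%), and the medians were 0.66 and 1.08. Both lists were chosen with earlier results of these data known. NPC1, which exports cholesterol from the lysosome, had 8.42 and 8.11 at the high dose, 8.39, 8.45 and 8.02 at the low dose, and 6.84, 6.82 and 6.02 in controls. Every treated array lay above every control for NPC1, which rose by 1.71 ± 0.26 at the high dose (adjusted p = 0.0164) and by 1.73 ± 0.23 at the low dose (adjusted p = 0.00338). INSIG1, which holds the sterol sensor in the endoplasmic reticulum, rose by 2.09 at the high dose and 2.54 at the low dose. HMGCS1 rose by 1.61 and 2.42 and IDI1 by 1.17 and 1.18, both enzymes of the mevalonate route. LSS, lanosterol synthase, rose by 1.32 at the low dose and differed by 0.26 at the high dose (adjusted p = 0.701). The test of high against low dose called no gene of the list. Both treated groups are set against the same controls, so their values are not independent of each other.

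**Figure D2:**
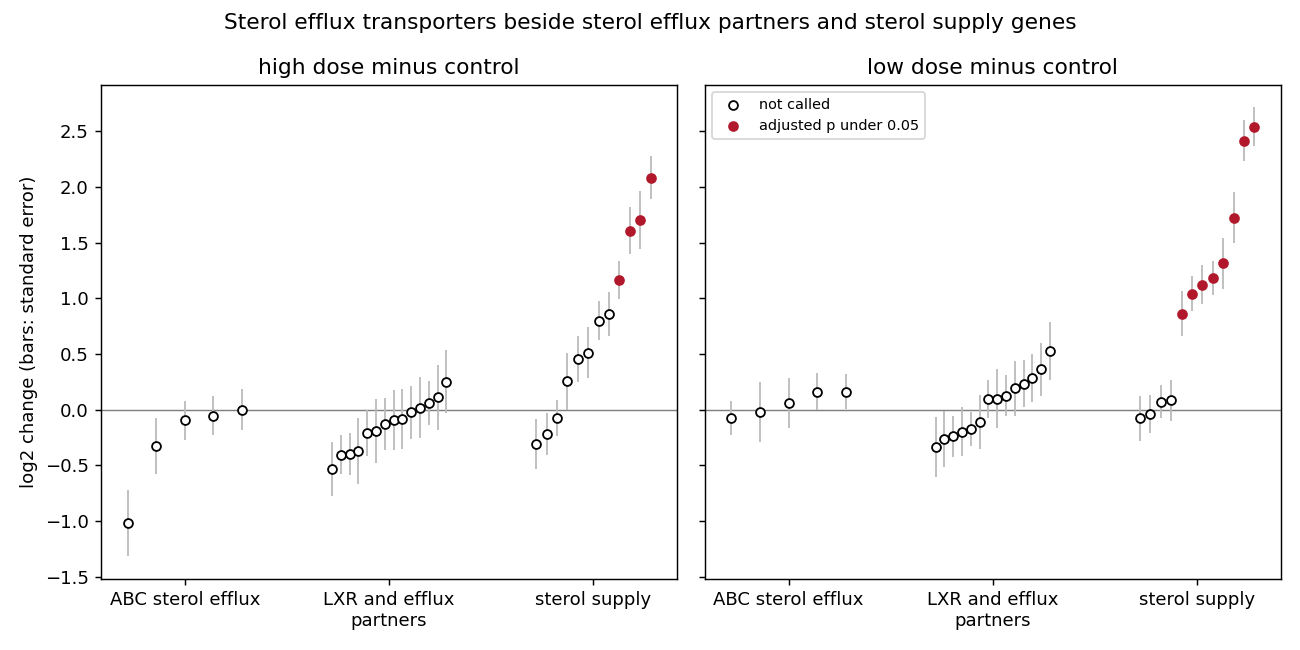
Log2 change against control with its standard error for the 5 ABC sterol efflux members, 14 LXR and efflux partners and 12 sterol supply genes, at the high dose (left panel) and the low dose (right panel); filled points are called. The filled points all lie in the sterol supply list, 4 at the high dose and 8 at the low dose, and ABCA1 is the lowest point at the high dose (-1.02).

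None of the 9 drug efflux members was called in any comparison. ABCB1, the drug pump P-glycoprotein, had log2 values of 1.70 and 1.62 at the high dose, 1.71, 1.54 and 1.63 at the low dose, and 1.40, 1.70 and 1.31 in controls. It was dim on all 8 arrays and the groups overlapped, with differences from control of 0.19 ± 0.17 at the high dose (95% interval -0.20 to 0.57) and 0.16 ± 0.16 at the low dose (interval -0.19 to 0.50). ABCG2, the breast cancer resistance protein, had 4.40 and 4.15 at the high dose, 4.70, 4.54 and 4.25 at the low dose, and 4.70, 4.33 and 4.14 in controls. The values of its 3 groups overlapped, with differences from control of -0.12 ± 0.21 (interval -0.58 to 0.35) and 0.10 ± 0.19 (interval -0.32 to 0.52). Leaving out 1 array moved them between -0.24 and 0.04 and between -0.02 and 0.26.

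The ABCC pumps export conjugated and anionic compounds. ABCC1, which exports glutathione conjugates and leukotriene C4, had 6.19 and 5.65 at the high dose, 6.48, 6.52 and 6.10 at the low dose, and 6.48, 6.55 and 5.74 in controls. Within each group the low array of ABCC1 was high 2, low 3 and control 3, the arrays with the low percentiles, and its difference from control was -0.34 ± 0.27 at the high dose (adjusted p = 0.603) and 0.11 ± 0.24 at the low dose (adjusted p = 0.915). Leaving out 1 array moved these differences of ABCC1 between -0.61 (without high 1) and -0.07 (without high 2), and between -0.15 (without control 3) and 0.25 (without control 2). ABCC3, which exports glucuronides and bile salts at the basolateral membrane, had 5.94 and 5.43 at the high dose, 6.83, 6.80 and 6.38 at the low dose, and 6.62, 6.73 and 5.27 in controls. Control 3 lay below every other array for ABCC3, so its control SD was 0.81, and the differences from control were -0.53 ± 0.38 at the high dose (adjusted p = 0.556) and 0.46 ± 0.34 at the low dose (adjusted p = 0.631). Without control 3 they were -0.996, with an adjusted p of 0.0308, and -0.01, with an adjusted p of 0.997. Without control 1, control 2 or high 2 the high-dose difference was -0.32, -0.27 or -0.27, none of them called. High against low dose gave -0.99 ± 0.38 (adjusted p = 0.514), with both high-dose arrays below all low-dose arrays.

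ABCC4, which exports cyclic nucleotides and prostaglandins, had 5.18 and 4.96 at the high dose, 5.32, 5.00 and 4.93 at the low dose, and 5.62, 5.37 and 5.28 in controls. Both high-dose arrays were below all controls and the low-dose arrays overlapped them, with similar differences of -0.35 ± 0.19 (adjusted p = 0.425) and -0.34 ± 0.17 (adjusted p = 0.417). ABCC2, the apical pump of the liver for bilirubin glucuronide, had 2.42 and 1.63 at the high dose, 1.94, 2.62 and 2.42 at the low dose, and 2.30, 1.72 and 1.86 in controls. Its arrays within the high-dose group differed by more than the group means did, and the differences from control were 0.07 ± 0.28 and 0.37 ± 0.25. The high-dose difference of ABCC2 was -0.33 without high 1 and 0.46 without high 2. The nucleotide pump ABCC5, the taxane pump ABCC10 and ABCC11 differed from control by -0.05, -0.05 and -0.04 at the high dose and by -0.25, 0.22 and 0.06 at the low dose. Among the 14 measured regulators and conjugation partners of drug efflux, 1 was called higher at the low dose and 0 at the high dose (background 1.19% and 0.425%). At either dose 0 were called lower (background 1.81% and 0.389%). The called gene was GCLC, the catalytic subunit of glutathione synthesis (0.89 ± 0.18 at the low dose, adjusted p = 0.0246, and 0.93 ± 0.20 at the high dose, adjusted p = 0.0704).

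**Figure D3:**
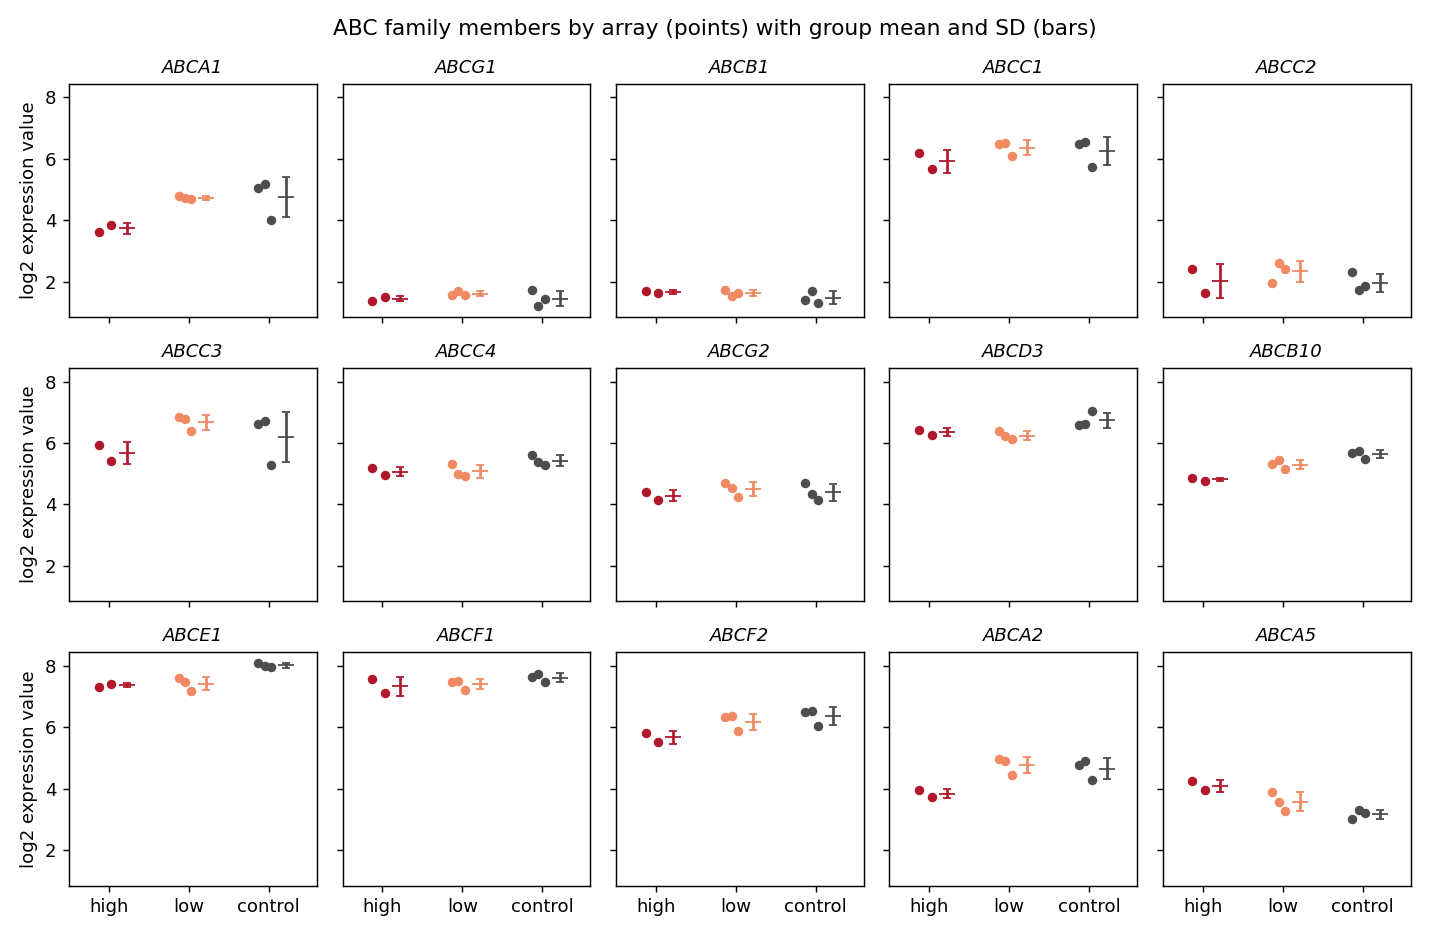
Log2 expression values (vertical axis) of 15 ABC family members on each array (points), by group (horizontal axis: high dose, low dose, control), with the group mean and SD beside the points. The groups of ABCB1 and ABCG2 overlap, whereas for ABCB10 both high-dose arrays (4.86 and 4.78) lie below all other arrays.

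The peroxisomal members were ABCD2 and ABCD3. ABCD3, also called PMP70, imports long and branched fatty acids and bile acid intermediates into the peroxisome. Its log2 values were 6.44 and 6.26 at the high dose, 6.40, 6.22 and 6.12 at the low dose, and 6.60, 6.61 and 7.03 in controls. All treated arrays of ABCD3 lay below all controls, and here control 3 was the highest control rather than the lowest. The difference from control was -0.39 ± 0.19 at the high dose (adjusted p = 0.372) and -0.50 ± 0.17 at the low dose (adjusted p = 0.178; 95% interval -0.87 to -0.13). ABCD2, a carrier of very long chain fatty acids, was dim, with 1.26, 1.01 and 1.27 as means of the high-dose, low-dose and control arrays. Its low-dose arrays lay below all controls (-0.26 ± 0.15, adjusted p = 0.508), while its high-dose arrays overlapped them (-0.01 ± 0.17). Of all genes, 13% had all low-dose arrays below all controls and 22.9% had all high-dose arrays below them. Among the 13 measured peroxisome partners 1 was called higher at the low dose and 0 at the high dose (background 1.19% and 0.425%). At either dose 0 were called lower (background 1.81% and 0.389%). The called gene was ACSL1, which activates long-chain fatty acids (0.72 ± 0.16 at the low dose, adjusted p = 0.0374, and 0.54 ± 0.18 at the high dose, adjusted p = 0.204).

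ABCB10 was the mitochondrial member with a row of its own. It lies in the inner mitochondrial membrane and supports heme synthesis. Its log2 values were 4.86 and 4.78 at the high dose, 5.30, 5.46 and 5.14 at the low dose, and 5.67, 5.75 and 5.49 in controls. The 3 groups did not overlap, with the high-dose arrays lowest, the low-dose arrays between and the controls highest. The difference between high dose and control was -0.82 ± 0.17 (a 1.77-fold lower level; 95% interval -1.20 to -0.45), the smallest p of the family in that comparison (unadjusted p = 0.000552), and its adjusted p of 0.0573 missed the threshold. It would be called without control 3 (-0.90, adjusted p = 0.0193) and without low 3 (-0.82, adjusted p = 0.0494), but not without any other control or low-dose array. Low dose against control gave -0.34 ± 0.15 (adjusted p = 0.348), and high against low dose -0.48 ± 0.17 (adjusted p = 0.483). The reference annotation holds pseudogenes of ABCB10, ABCE1 and ABCF2, so the values of these 3 genes are uncertain to the extent that their probes also read a copy.

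ABCB6 and ABCB8 share their rows with the neighbouring genes ATG9A and ASIC3 and are therefore no members. The row shared by ABCB6 and ATG9A differed from control by -0.31 ± 0.22 at the high dose and 0.11 ± 0.20 at the low dose. The 2 rows shared by ABCB8 and ASIC3 gave 0.03 ± 0.25 and -0.27 ± 0.25 at the high dose, and 0.31 ± 0.23 and 0.43 ± 0.22 at the low dose. Of 18 measured partners in iron-sulfur cluster and heme synthesis, 0 were called in any comparison, with medians of -0.35 at the high dose and -0.18 at the low dose.

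All 4 soluble members that act on the ribosome were lower than control by their estimates in both treated groups, which share the same controls. This held for all 4 after quantile normalization and after subtraction of array medians. All 4 had a mean above 4, and of all genes with a mean of 4 or more 75.2% were below 0 at the high dose and 59.3% at the low dose. At the high dose this was so for all 16 family members of that level. As deposited none of the 4 was called. ABCE1 splits ribosomes after termination so that they can be used again. Its log2 values were 7.33 and 7.41 at the high dose, 7.61, 7.47 and 7.18 at the low dose, and 8.10, 7.998 and 7.95 in controls. Every treated array of ABCE1 lay below every control, and the controls spread little (SD 0.07). The difference from control was -0.60 ± 0.16 at the low dose (a 1.51-fold lower level; adjusted p = 0.0747) and -0.65 ± 0.18 at the high dose (adjusted p = 0.134), while high against low dose gave -0.05 ± 0.18 (95% interval -0.44 to 0.34). A fit of all 8 arrays blocked on replicate number gave the low-dose difference as -0.60 with an adjusted p of 0.0475. That block also covered the high-dose arrays, which were not taken as paired. With array medians subtracted ABCE1 would also be called at the low dose (-0.58, adjusted p = 0.0482). The same block over only the 6 control and low arrays, added once the data had been seen, gave an adjusted p of 0.0797.

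ABCF2, described because of its values, had 5.82 and 5.53 at the high dose, 6.32, 6.35 and 5.89 at the low dose, and 6.51, 6.55 and 6.05 in controls. Both high-dose arrays of ABCF2 were below all others, and the difference from control was -0.70 ± 0.22 (adjusted p = 0.184). Without control 3 it was -0.86, with an adjusted p of 0.0406, and leaving out any other control or low-dose array gave no call. At the low dose ABCF2 differed by -0.18 ± 0.20. ABCF3, whose relative in yeast activates the amino acid sensor kinase Gcn2, differed by -0.49 ± 0.26 at the high dose and -0.09 ± 0.24 at the low dose, with overlapping groups. ABCF1, which binds the initiation factor eIF2, had 7.56 and 7.12 at the high dose, 7.48, 7.52 and 7.21 at the low dose, and 7.65, 7.75 and 7.46 in controls. The groups of ABCF1 overlapped, with differences of -0.28 ± 0.19 at the high dose and -0.22 ± 0.17 at the low dose. The high-dose difference of ABCF1 was -0.50 without high 1 and -0.06 without high 2, and the low-dose difference was -0.12 without low 3. ABCF1 lies in the major histocompatibility complex on chromosome 6 and had 7 rows. The kept row differed from control by -0.28 at the high dose. The other rows differed by -0.31, with group means and standard errors identical to each other, so they are not separate measurements. Of 11 measured partners in ribosome recycling and stress control, 0 were called in any comparison, with medians of -0.32 at the high dose and -0.13 at the low dose.

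Of the 11 other subfamily A lipid transporters, ABCA5 and ABCA2 stood out at the high dose in opposite directions, and they are described because of their values. ABCA5 lies in the membranes of lysosomes and late endosomes. Its log2 values were 4.24 and 3.96 at the high dose, 3.89, 3.56 and 3.28 at the low dose, and 3.01, 3.30 and 3.20 in controls. Both high-dose arrays of ABCA5 lay above all others, and the low-dose arrays overlapped the controls only through low 3. The difference from control was 0.93 ± 0.21 at the high dose (a 1.90-fold higher level; 95% interval 0.47 to 1.39; adjusted p = 0.0753) and 0.40 ± 0.19 at the low dose (adjusted p = 0.365), while high against low dose gave 0.53 ± 0.21 (adjusted p = 0.530). The high-dose difference would be called with quantile normalization (1.08, adjusted p = 0.0120) and with array medians subtracted (1.03, adjusted p = 0.0273). It would also be called without control 3 (0.95, adjusted p = 0.0388), but not without any other control or low-dose array. ABCA5 is itself one of the dim members, with a mean of 3.55 over all arrays. It was therefore left out where only genes with a mean of 4 or more were tested. ABCA5 lies on chromosome 17 in 1 cluster with its relatives ABCA6, ABCA8, ABCA9 and ABCA10. These were dimmer still (means of 1.14, 1.10, 1.16 and 1.33) and differed from control by -0.14, 0.05, 0.11 and -0.06 at the high dose.

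ABCA2, an endosomal and lysosomal lipid transporter, had 3.95 and 3.73 at the high dose, 4.96, 4.89 and 4.46 at the low dose, and 4.78, 4.92 and 4.27 in controls. Both high-dose arrays of ABCA2 lay below all low-dose and control arrays. The difference from control was -0.82 ± 0.23 at the high dose (adjusted p = 0.146), or -1.01 without control 3, with an adjusted p of 0.0211. Leaving out any other control or low-dose array gave no call. At the low dose the difference was 0.12 ± 0.21 (adjusted p = 0.885). High against low dose gave -0.93 ± 0.23 (adjusted p = 0.331), the smallest p of the family in that comparison (unadjusted p = 0.00192). Its adjusted p was 0.0497 without control 3, which enters only the shared spread there. The surfactant lipid transporter ABCA3 differed from control by -0.59 ± 0.30 at the high dose, with overlapping groups, and by -0.08 ± 0.26 at the low dose. ABCA7, ABCA4, ABCA12 and ABCA13 differed by -0.05, 0.03, -0.08 and 0.05 at the high dose and by -0.03, 0.15, -0.03 and 0.01 at the low dose.

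None of the remaining 9 members was called. The bile transporters ABCB4 (phosphatidylcholine) and ABCB11 (bile salts) differed from control by -0.25 and -0.03 at the high dose and by -0.10 and -0.02 at the low dose. The lysosomal members ABCB9, a peptide transporter, and ABCD4, which takes part in the release of cobalamin, differed by 0.21 and -0.32 at the high dose and by 0.20 and -0.03 at the low dose. ABCC8 and ABCC9, the sulfonylurea receptors of potassium channels, together with ABCB5, ABCC12 and the pseudogene ABCC13, lay between -0.20 and -0.02 at the high dose and between -0.18 and 0.07 at the low dose. Of the ABC genes with other symbols, the peptide transporter genes TAP1 and TAP2 differed by 0.10 ± 0.26 and -0.68 ± 0.23 at the high dose (adjusted p = 0.905 and 0.216) and by 0.05 and -0.42 at the low dose. The chloride channel gene CFTR differed by -0.15 and -0.05, and none of these 3 was called.

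**Figure D4:**
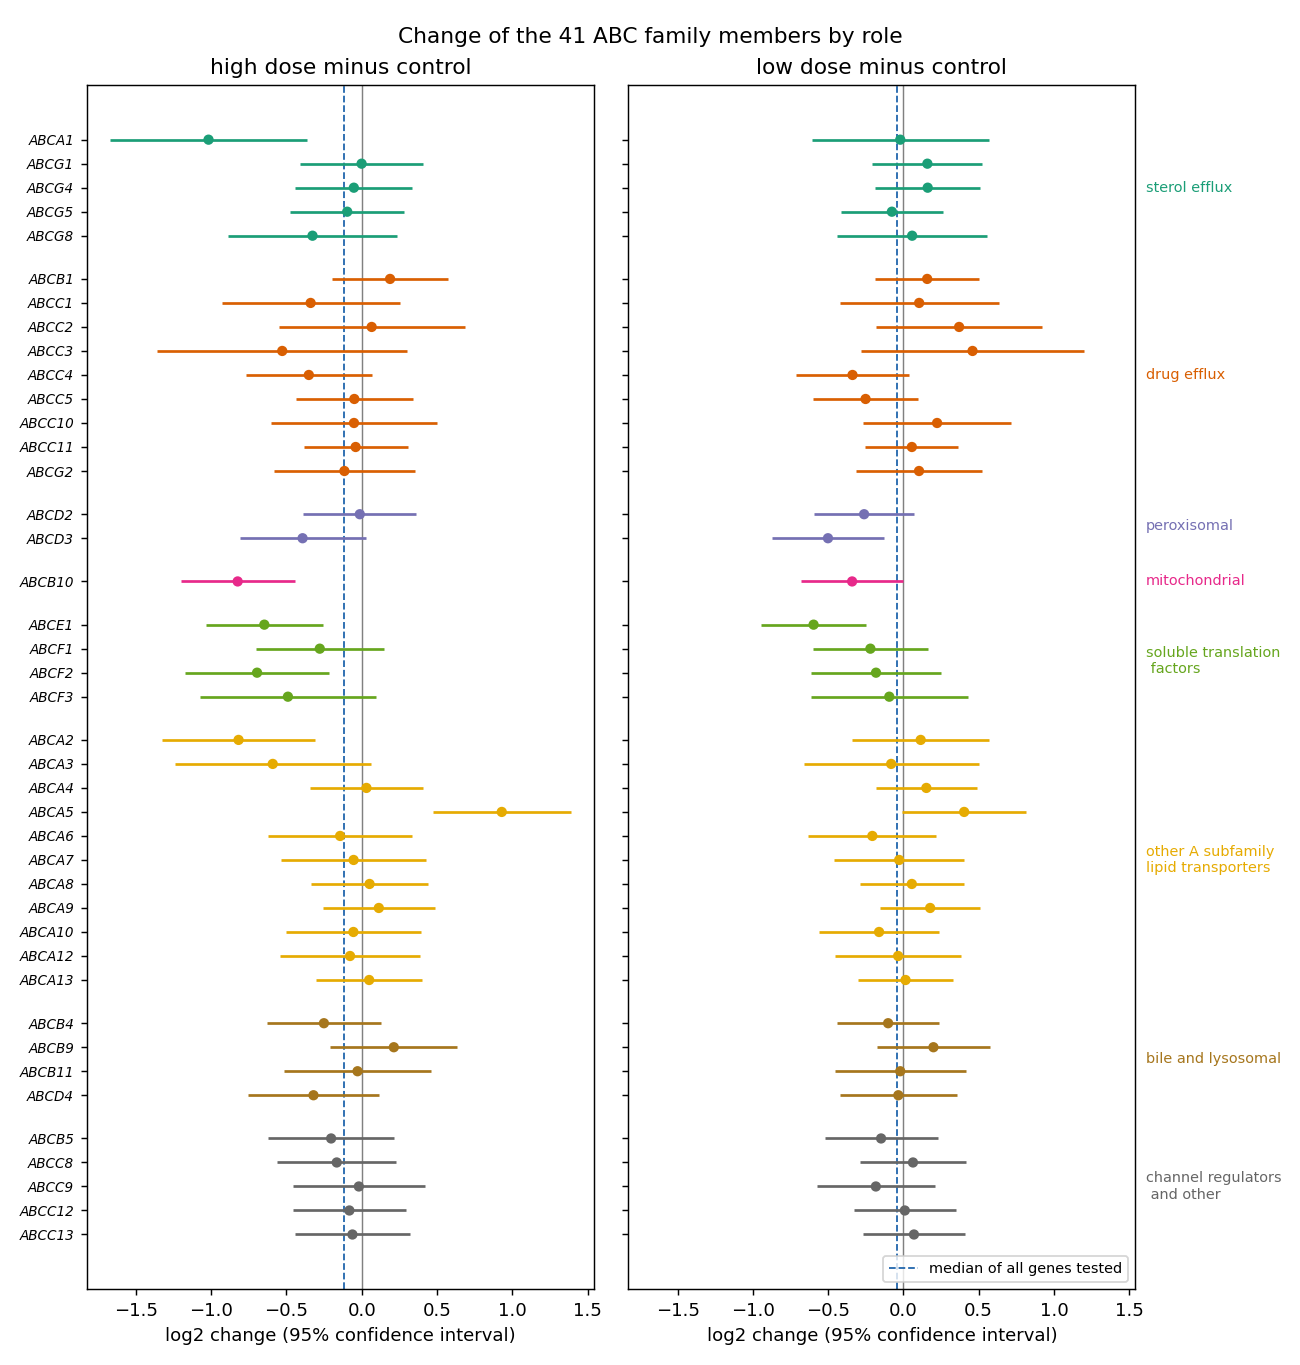
Log2 change with its 95% confidence interval for the 41 ABC family members (rows, coloured by role) at the high dose (left) and the low dose (right), with a dashed line at the median of all 22109 genes. At the high dose the estimates run from -1.02 (ABCA1) to 0.93 (ABCA5), and at the low dose from -0.60 (ABCE1) to 0.46 (ABCC3).

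By role, the median difference at the high dose was -0.10 for sterol efflux, -0.05 for drug efflux, -0.20 for the 2 peroxisomal members, -0.57 for the soluble members and -0.05 for the other subfamily A members, with -0.82 for the lone mitochondrial member. At the low dose the same medians were 0.06, 0.11, -0.38, -0.20 and 0.01, with -0.34 for the mitochondrial member. The median of the whole family was -0.08 at the high dose, where that of all genes was -0.12, and -0.02 at the low dose, where that of all genes was -0.04. Roles also differ in level: ABCB10 and all soluble members had a mean above 4, but of the sterol efflux members only ABCA1 did. At the high dose the median was -0.44 for the 16 members with a mean of 4 or more and -0.04 for the 25 dim ones. For all genes with a mean of 4 or more it was -0.24. The medians by role are not matched for level. Relative to the median of all genes, ABCA1 differed by -0.90, ABCB10 by -0.71, ABCE1 by -0.53 and ABCA5 by 1.05 at the high dose.

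The direction of the estimates depended on the level and on the scaling. At the high dose 33 of 41 members (80.5%) had an estimate below 0, against 67.4% of all genes, but with array medians subtracted this was 19 of 41, against 53.1% of all genes, and with quantile normalization 23 of 41, against 52.9%. Of the 16 members with a mean of 4 or more, 16 had an estimate below 0 at the high dose, against 75.2% of all genes of that level, and 14 and 13 did so under the same 2 scalings, against 66.5% and 53.6%. At the low dose 21 of 41 members had an estimate below 0, against 57.4% of all genes. The arrays of high dose and control did not overlap for 7 members on the lower side and 2 on the higher side, against 22.9% and 7.07% of all genes. For low dose and control these counts were 5 and 1, against 13% and 7.03%. A change of 2-fold or more was estimated for 1 member at the high dose, ABCA1, on the lower side (background 0.683%), and for 0 on the higher side (background 0.751%). At the low dose it was estimated for 0 members in either direction, against 0.868% of all genes higher and 1.06% lower. Between high and low dose it was 0 in both directions, against 0.384% and 0.375%, and the arrays did not overlap for 3 members on the higher and 10 on the lower side, against 8.77% and 16.7%.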

How the data were processed

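Total RNA of 8 samples of MDA-MB-231 cells was measured, with 1 array per sample, and samples were grouped by their titles (2 high, 3 low, 3 control). The deposited table holds log2 values for 53617 probe sets. The authors worked with the Transcriptome Analysis Console, per the submitters' processing notes. Which version, summarization and normalization they used is not given in the sources used here. That base 2 applies was read off the range of the values, whose maximum is 12.10. No further normalization was applied, and precision is limited by how few arrays there are.

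Rows were named through the platform annotation, with symbols updated by Entrez identifier. Of these rows 23558 carried 1 symbol, 2155 several, and 27904 were unnamed here. For the 618 genes with several rows the row with the highest mean was kept, which left 22109 genes. The 41 family members came from 47 rows, and all 41 matched a RefSeq record. limma 3.58.1 (R 4.3.3) fitted 1 mean per group to the 8 arrays together, with 5 residual and 6 prior degrees of freedom. P-values were adjusted over all genes of a comparison, and intervals are 95% intervals of the moderated test. The script was tested on simulated data with known changes.

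The members, roles, partner lists (85 of 103 genes measured) and tests were chosen with earlier results of these data known. By rule, per-array values are given for called members and for a set of members of known role. Members given in full beyond these were chosen after their values were seen. At most 4 called genes of a partner list are named for each comparison, by the size of their change. The labels state no pairing. The reported tests use no pairing and no block. Replicate numbers were taken to pair control and low arrays in alternative fits only, judged by the deviations of arrays from their group means. Same-numbered arrays correlated at 0.103, 0.153 and 0.203 across genes, each above 0.1. Deviations cancel out within a group, so these 3 values are not separate evidence. The largest correlation, 0.274, was between low 3 and high 2, differently numbered arrays with low percentiles. These correlations therefore cannot settle a pairing. The differently numbered control 1 and low 2 correlated at 0.122, so control 1 did not correlate best with its own number. The high-dose arrays correlated with the same-numbered controls at 0.094 and -0.049 and with the same-numbered low-dose arrays at 0.214 and -0.177, and were not taken as paired. Promoter sequences were those of RefSeq (GRCh38.p14), searched with Python 3.11.15.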

Additional observations from a re-analysis of the deposited data

How the results depend on the processing

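The count of called ABC family members was 0 in every comparison as reported, by limma. Higher in high dose against control, it was 1 (ABCA5) with quantile normalization, with array medians subtracted, with the replicate block, with array weights, and without control 3, low 3 and high 2 together. Lower in high dose against control, it was 1 (ABCB10) when only genes with a mean of 4 or more were tested, 5 (ABCA1, ABCA2, ABCB10, ABCE1 and ABCF2) with the replicate block and also with array weights, and 6 (these and ABCC3) without the 3 arrays together. In low dose against control, 1 (ABCA5) was higher with array weights, and 1 (ABCE1) was lower with array medians subtracted, with the replicate block and with array weights. Lower in high against low dose, it was 1 (ABCA2) with the replicate block and with array weights, and 2 (ABCA1 and ABCA2) without the 3 arrays together. Leaving out 1 array gave 0 to 1 higher and 0 to 5 lower for high dose against control, 0 in both directions for low dose against control, and 0 higher and 0 to 2 lower for high against low dose. Without low 3, ABCB10 alone was called. The higher 1 (ABCA5) and the counts of 5 and 2 came without control 3, those 5 being ABCA1, ABCA2, ABCB10, ABCC3 and ABCF2. In these settings the count over all genes moved too: lower in high dose against control, 86 genes were called as reported, 1031 with the replicate block, 769 with array weights and 740 without control 3. The block changed no other call of the family. The cause of these shifts was not tested. A trend and robust prior, only the 2 groups compared, the mean of all rows of a gene and all deposited rows tested together left the count at 0 in all comparisons. Dim probe sets, with no measure of background, limit what could be seen for the 25 members with a mean below 4.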
